A study of Mus musculus with 12 samples.

Results

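The 10 genes described here encode amino acid transporters of hepatocytes, the main cell type of the liver. They were chosen by symbol from the 54838 genes of a liver RNA-seq count table, with earlier results of these data known. The 10 are *Slc38a2*, *Slc38a3*, *Slc38a4*, *Slc7a2*, *Slc7a5*, *Slc3a2*, *Slc1a4*, *Slc16a10*, *Slc6a12* and *Slc3a1*. All 10 were present in the table, had at least 1 count in each library and entered each test. The livers came from 12 C57BL/6J mice in 4 groups of 3. For 7 days the drinking water was either normal or held 25 mM ZnSO4. The mice were then injected i.p. with PBS or with dexamethasone (Dex, 200 µg), a synthetic glucocorticoid that activates the glucocorticoid receptor (GR), and were sampled 2 h later. The control group on normal water and PBS is called water-PBS, and the others are called zinc-PBS, zinc-Dex and water-Dex. No group carried a transgene or a mutation. The study's methods describe its purchased C57BL/6J mice as female, and the labels give no age. The study asked how zinc in the drinking water protects mice against lethal inflammation caused by the cytokine TNF. The interplay of zinc with glucocorticoids was a part of that question, and for liver the study reported zinc against normal water. The comparisons below give the Dex effect in each kind of drinking water, the zinc effect under each injection, and the difference between them.

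Hepatocytes take up amino acids from portal blood and use them for protein synthesis, gluconeogenesis, urea and glutamine formation, and release others to the circulation. Sodium-coupled carriers of the SLC38 family drive small neutral amino acids and glutamine across the sinusoidal membrane, CAT2 carries cationic amino acids, and the LAT exchangers need a heavy chain to reach the cell surface. Glucocorticoids are long known to raise amino acid uptake and amino acid breakdown in liver during fasting.

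Levels are given as normalized read counts (raw counts divided by the DESeq2 size factor of the library), with the mean ± SD over 3 mice. A gene passed the test at a DESeq2 adjusted p under 0.05 over all genes tested, and was called when its absolute log2 fold change was also above 0.8, the cutoffs of the study. Total counts lay between 9091152 and 12303527 per library. The livers carried the marks of their treatments. *Fkbp5*, a direct GR target, had 536 to 1490 normalized counts in the 6 PBS-injected mice and 7988 to 8673 in the 6 Dex-injected mice, and *Mt1*, a metallothionein inducible by metals and glucocorticoids, had 209 to 435 in water-PBS and 3427 to 6212 in zinc-PBS. After Dex *Mt1* had 7486 to 7595 on water and 12367 to 15077 on zinc, so its level marked zinc only among mice with the same injection. Of 6 listed hepatocyte markers 5 were found in the table, and their sum was 1144475 to 1360136 normalized counts after PBS and 1498353 to 1651737 after Dex, with 3 of 5 passing as higher with Dex in water and 4 of 5 in zinc. Most of that sum was *Alb*, at 1059940 on average in water-PBS and 1305427 in water-Dex. The sum of 8 Kupffer cell markers overlapped between all groups (4906 to 7031), and none of them passed in any comparison. The sum of 6 lymphocyte markers was 245 to 282 after PBS and 164 to 223 after Dex, with 2 of 6 lower in water and 1 of 6 in zinc. Most of it was *Ptprc*, at 231 on average in water-PBS and 190 in water-Dex. Each other lymphocyte marker averaged 9.48 or less in the PBS groups and 4.25 or less in the Dex groups. Of 7 endothelial markers 1 was higher and 2 were lower with Dex in each kind of water (sums of 4098 to 4422 after PBS and 4194 to 4663 after Dex). Of 7 stellate cell markers 1 was higher and 2 lower in water and 2 higher and 1 lower in zinc (5070 to 5493 and 5721 to 6783). Of 5 red blood cell genes 1 was higher with Dex in water and 3 in zinc (778 to 1561 and 1213 to 2135). Among 6 exocrine pancreas genes 4 were at 0 in all libraries, and the sum of the 6 was 2.20 to 11.1. Of 6 gut epithelium genes *Vil1*, named here after its value was seen, was lower with Dex in zinc and no other passed (sums of 624 to 840 and 586 to 744). Beside these marker counts, 11.7% of all genes tested passed as higher and 9.91% as lower with Dex in water. In zinc the shares were 11.0% and 9.08%. In bulk liver RNA, a change in the number of cells of a type and a change in RNA per cell cannot be told apart, and the part of these marker shifts in the results below was not tested.

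In the control livers the 10 transporters spanned more than 2 orders of magnitude. Compared per kb of exon, which allows levels of different genes to be set side by side, *Slc38a3* (2626 ± 434 normalized counts per kb) and *Slc38a4* (2463 ± 280) stood highest in water-PBS, and their ranges over mice overlapped. *Slc7a2* followed at 465 ± 22.8 per kb and *Slc6a12* at 337 ± 79.0, with no overlap between them. *Slc16a10* (201 ± 22.6 per kb), *Slc3a1* (191 ± 25.2) and *Slc38a2* (158 ± 37.1) overlapped in their ranges, and so did *Slc38a2* and *Slc3a2* (127 ± 10.4). *Slc1a4* (22.5 ± 3.31 per kb) and *Slc7a5* (15.1 ± 1.06) were lowest and did not overlap. After Dex the order changed near the top and at the bottom. In water-Dex *Slc38a4* led at 3451 ± 94.5 per kb, *Slc38a3* (1598 ± 498) overlapped *Slc7a2* (1234 ± 24.9), and *Slc38a2* rose to the fourth place at 848 ± 106. In zinc-Dex these 4 genes kept that order without overlap, at 4657 ± 339, 2745 ± 255, 1638 ± 81.9 and 949 ± 35 per kb.

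**Figure D1:**
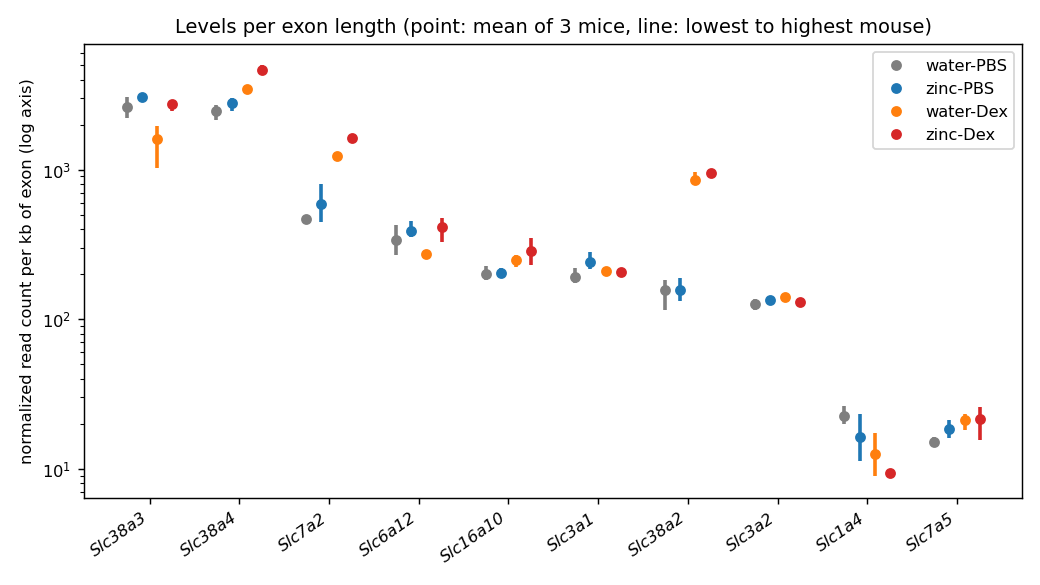
Normalized read count per kb of exon, on a log axis, for the 10 transporter genes ordered by their water-PBS mean. Points are means of 3 mice in each of the 4 groups and lines run from the lowest to the highest mouse, and *Slc38a2* moves from 158 per kb in water-PBS to 848 in water-Dex while *Slc7a5* stays between 15.1 and 21.5 in all groups.

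Summed over the 10 genes, the PBS-injected mice had 33519 ± 3519 normalized counts on water and 38820 ± 3226 on zinc. The Dex-injected mice had 45662 ± 1653 on water and 62072 ± 3593 on zinc. This sum was dominated by *Slc38a3*, *Slc38a4* and *Slc7a2*, joined by *Slc38a2* only after Dex, and it is given as a description.

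Dex raised 3 transporters and lowered 2 in mice on normal water. *Slc38a2* (SNAT2) rose 5.38-fold, *Slc7a2* (CAT2) 2.66-fold and *Slc38a4* (SNAT4) 1.40-fold, while *Slc38a3* (SNAT3) and the low-level *Slc1a4* (ASCT1) fell. In mice on zinc, Dex raised these 3 genes and *Slc16a10* (TAT1), and lowered *Slc1a4*. Thus 5 of 10 passed in water, 3 higher and 2 lower, where 21.6% of all 14221 genes tested passed (11.7% higher and 9.91% lower). In zinc 5 of 10 passed, 4 higher and 1 lower, where 20.1% of 15657 genes passed (11.0% higher and 9.08% lower). With the fold change cutoff 3 of 10 were called in each, *Slc38a2*, *Slc7a2* and *Slc1a4*, against 9.68% of all genes in water and 9.68% in zinc. The median log2 fold change of the 10 genes was 0.23 in water and 0.16 in zinc, beside -0.01 over all genes tested in each comparison. Since the 10 genes were chosen with earlier results of these data known, a share above that of all genes is only a description.

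**Figure D2:**
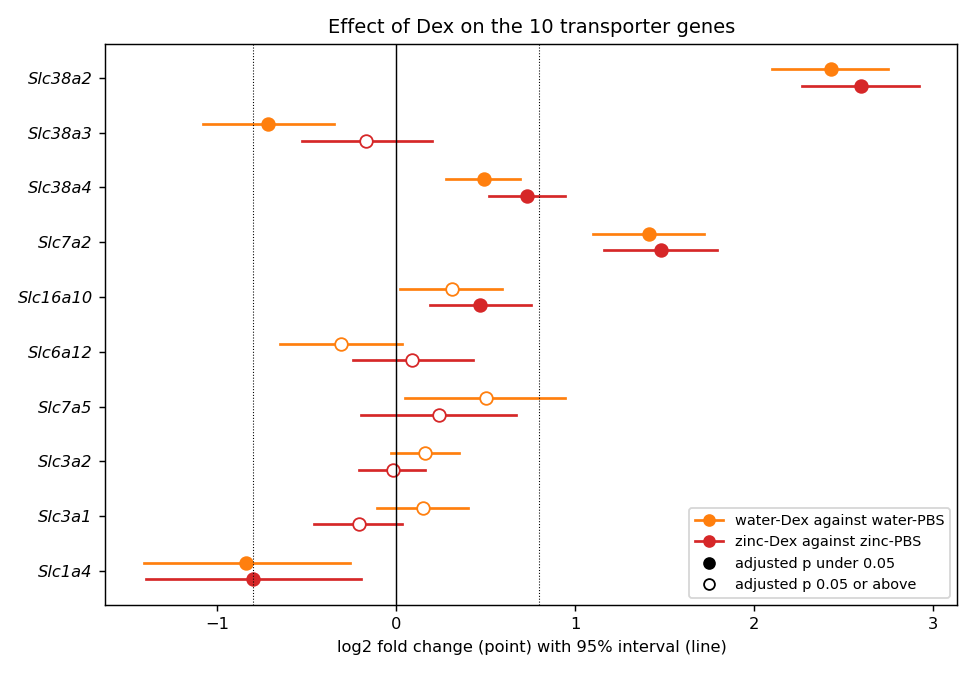
Log2 fold change with Dex for each of the 10 genes, water-Dex against water-PBS and zinc-Dex against zinc-PBS, 3 mice a group. Points are DESeq2 estimates, lines are 95% intervals, filled points passed at an adjusted p under 0.05, and dotted lines mark 0.8 in each direction, with *Slc38a2* at 2.43 and 2.60 and *Slc7a2* at 1.41 and 1.48 beyond them.

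The system A and system N carriers came first. *Slc38a2* (ENSMUSG00000022462, chromosome 15, 96687392 to 96699730, minus strand, GRCm38) encodes SNAT2, the sodium-coupled carrier of alanine and other small neutral amino acids that cells increase when amino acids run short. It had 1608, 1555 and 1015 normalized counts in water-PBS and 1655, 1329 and 1172 in zinc-PBS. After Dex it had 6956, 8578 and 6947 in mice on water and 8165, 8737 and 8248 in mice on zinc. Each Dex-injected mouse stood far above each PBS-injected mouse, and the mice on zinc and on water overlapped under both injections. The log2 fold change with Dex was 2.43 (SE 0.165, DESeq2 adjusted p 2.51e-46) in water and 2.60 (SE 0.165, adjusted p 3.41e-53) in zinc. Over 13 alternative fits for each comparison it stayed between 2.25 and 2.54 and between 2.49 and 2.75.

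*Slc38a4* (ENSMUSG00000022464, chromosome 15, 96994820 to 97055956, minus strand) encodes SNAT4, a neutral amino acid carrier of liver, and was after Dex the highest of the 10 per kb. Its counts were 9180, 10783 and 11516 in water-PBS, and 12882, 12568 and 10447 in zinc-PBS. After Dex they were 14771, 15066 and 14270 on water and 21444, 18642 and 19446 on zinc. The groups of Dex-injected mice lay above both PBS groups, and zinc-Dex lay above water-Dex without overlap. Dex raised it by 0.49 on the log2 scale in water (SE 0.106, DESeq2 adjusted p 5.81e-05) and by 0.73 in zinc (SE 0.106, adjusted p 1.78e-10), both under the 0.8 cutoff, and it passed in all 13 alternative fits of each.

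*Slc38a2* and *Slc38a4* are neighbours on chromosome 15, 295 kb apart with 0 protein-coding genes between them, and *Slc38a1*, the third gene of this row, lies 44.5 kb from the other side of *Slc38a2*. *Slc38a1* was low in liver, at 35.1 normalized counts in water-PBS and 25.3 in water-Dex (log2 fold change -0.47, SE 0.362, DESeq2 adjusted p 0.413). With Dex in zinc it did not pass either (-0.69, adjusted p 0.191).

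The 250 bases before the annotated start sites of *Slc38a2* (chr15:96699729-96699978, minus strand) and *Slc38a4* (chr15:97055957-97056206, minus strand, the first of 3 listed starts) are shown because these adjacent genes were both higher with Dex. That of *Slc1a4* (chr11:20332714-20332963, minus strand) is shown as a gene that was lower. Sequences are from RefSeq on GRCm38.p6, read 5′ to 3′ on the gene's strand, and capitals mark the CCAAT box on either strand (ATTGG on the other).
Slc38a2: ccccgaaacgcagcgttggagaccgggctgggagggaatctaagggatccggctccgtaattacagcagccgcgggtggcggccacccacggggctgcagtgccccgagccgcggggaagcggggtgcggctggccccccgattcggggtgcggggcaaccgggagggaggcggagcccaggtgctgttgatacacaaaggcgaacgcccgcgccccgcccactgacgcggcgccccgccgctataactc
Slc38a4: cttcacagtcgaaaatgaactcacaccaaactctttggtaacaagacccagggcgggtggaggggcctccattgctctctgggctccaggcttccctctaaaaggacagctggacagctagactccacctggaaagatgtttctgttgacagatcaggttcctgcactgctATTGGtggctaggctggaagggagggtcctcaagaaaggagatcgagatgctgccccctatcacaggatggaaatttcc
Slc1a4: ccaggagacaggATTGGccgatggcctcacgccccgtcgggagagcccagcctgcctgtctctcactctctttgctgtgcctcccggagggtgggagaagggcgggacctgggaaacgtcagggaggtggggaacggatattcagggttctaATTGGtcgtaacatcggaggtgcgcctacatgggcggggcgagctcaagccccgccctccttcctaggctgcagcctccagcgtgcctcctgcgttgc
The *Slc38a2* stretch had a GC content of 72.0% and none of the motifs searched. The *Slc38a4* stretch (52.8% GC) held a CCAAT box at positions -79 to -75 from the start site, and the *Slc1a4* stretch (64.8% GC) held boxes at -238 to -234 and at -98 to -94. Promoters were listed for 7 of the 10 genes, 13 start sites in all, and not for *Slc38a3*, *Slc7a2* and *Slc7a5*. The glucocorticoid response element GNACANNNTGTNC was in 0 of the 13 and in 0.387% of all 32851 promoters of this length, and the amino acid response element core TGATGNAA in 0 of 13 and in 3.45%. The E-box CACGTG was in 0 of 13 and in 6.02%, CCAAT in 4 of 13 and in 33.8%, and TATAAA in 2 of 13 and in 12.4%, both strands searched. None of these motifs contains another, and a match is a description of the letters and not a binding site. Where the share over all promoters is this low, 0 of 13 does not set these promoters apart. The 13 include overlapping stretches of *Slc6a12*, and sequence outside the 250 bases was not searched.

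*Slc38a3* (ENSMUSG00000010064, chromosome 9, 107650634 to 107669530, minus strand) encodes SNAT3, the system N carrier that moves glutamine, histidine and asparagine in either direction across the hepatocyte membrane. It had 11597, 13808 and 16173 normalized counts in water-PBS and 16350, 16076 and 16316 in zinc-PBS. After Dex the mice on water had 10357, 5442 and 9502 and those on zinc 15106, 12942 and 15402. The water-Dex mice lay below all others, and water-Dex replicate 2 lay far below the other two of its group. With Dex in water it fell by 0.72 on the log2 scale (SE 0.187, DESeq2 adjusted p 0.00121), and by 0.48 without water-Dex replicate 2 (adjusted p 0.00326). It was past the 0.8 cutoff without water-PBS replicate 1 (-0.83), water-Dex replicate 1 (-0.89) or water-Dex replicate 3 (-0.81). A fit of only the 6 libraries compared gave an adjusted p of 0.0825. With Dex in zinc the log2 fold change was -0.17 (95% interval -0.53 to 0.20, adjusted p 0.631).

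Among the cationic, aromatic and heteromeric carriers, *Slc7a2* changed most. *Slc7a2* (ENSMUSG00000031596, chromosome 8, 40862396 to 40922308, plus strand) encodes CAT2, whose liver isoform is a low-affinity carrier of arginine, lysine and ornithine. It had 4269, 4026 and 4440 normalized counts in water-PBS and 7284, 4763 and 4092 in zinc-PBS. After Dex it had 11371, 11437 and 11013 in water and 15518, 14110 and 15255 in zinc. Dex-injected and PBS-injected mice did not overlap, zinc-PBS replicate 1 stood above the other PBS-injected mice, and zinc-Dex lay above water-Dex. The log2 fold change with Dex was 1.41 in water (SE 0.159, DESeq2 adjusted p 4.76e-17) and 1.48 in zinc (SE 0.159, adjusted p 1.11e-18), and it was 1.76 in zinc without zinc-PBS replicate 1. Exons of the gene share 6.95% of their length with the opposite-strand lincRNA *Gm26584*, which had 38 counts in all libraries together against 106516 for *Slc7a2*.

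*Slc16a10* (ENSMUSG00000019838, chromosome 10, 40033532 to 40142258, minus strand) encodes TAT1, a facilitative carrier of aromatic amino acids. It had 1434, 1335 and 1659 normalized counts in water-PBS, and 1477, 1432 and 1608 in zinc-PBS. After Dex it had 1988, 1633 and 1851 on water and 2567, 1687 and 2003 on zinc. Water-Dex overlapped water-PBS, and zinc-Dex lay above zinc-PBS. The log2 fold change with Dex in zinc was 0.47 (SE 0.143, DESeq2 adjusted p 0.00761), but 0.29 without zinc-Dex replicate 1 (adjusted p 0.101) and 0.44 without zinc-PBS replicate 2 (adjusted p 0.051). In water it was 0.31 (95% interval 0.02 to 0.59, adjusted p 0.119).

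*Slc1a4* (ENSMUSG00000020142, chromosome 11, 20302180 to 20332713, minus strand) encodes ASCT1, an exchanger of alanine, serine, cysteine and threonine, and was near the bottom of the 10 genes. Its normalized counts were 103, 78.3 and 83.5 in water-PBS, and 44.2, 55.9 and 91.4 in zinc-PBS. After Dex they were 68.0, 35.1 and 44.5 on water and 35.8, 34.4 and 39.4 on zinc. Dex-injected mice lay below the PBS-injected mice on the same water. The log2 fold change with Dex was -0.84 in water (SE 0.293, DESeq2 adjusted p 0.0238) and -0.80 in zinc (SE 0.305, adjusted p 0.0445). In water the gene no longer passed without water-PBS replicate 1 (adjusted p 0.12), water-PBS replicate 3 (0.0506), water-Dex replicate 2 (0.172) or water-Dex replicate 3 (0.111). In zinc it no longer passed in 8 of 13 alternative fits, and without zinc-PBS replicate 3 the log2 fold change was -0.45 (adjusted p 0.381). It no longer passed there without zinc-PBS replicate 2 (adjusted p 0.0588) or zinc-Dex replicate 1 (0.115), 2 (0.128) or 3 (0.0809), nor in a fit of only the 6 libraries (0.0685) or with no independent filtering (0.0742).

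The heteromeric exchanger subunits and the betaine carrier did not pass with Dex. *Slc7a5* (ENSMUSG00000040010, chromosome 8, 121881150 to 121907694, minus strand) encodes LAT1, the light chain that exchanges large neutral amino acids. It had 53.6 to 60.4 normalized counts in water-PBS and 59.6 to 77.9 in zinc-PBS, and after Dex 67.0 to 86.1 on water and 57.6 to 96.1 on zinc. Its log2 fold change with Dex was 0.50 in water (95% interval 0.05 to 0.94, DESeq2 adjusted p 0.112) and 0.24 in zinc (-0.20 to 0.67, adjusted p 0.543). *Slc3a2* (ENSMUSG00000010095, chromosome 19, 8706882 to 8723369, minus strand) encodes 4F2hc, the heavy chain that carries LAT1 and related light chains to the surface. Its group means lay between 447 ± 36.6 (water-PBS) and 499 ± 4.64 (water-Dex), and the intervals of its log2 fold change with Dex ran from -0.03 to 0.35 in water and from -0.21 to 0.16 in zinc.

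*Slc3a1* (ENSMUSG00000024131, chromosome 17, 85028376 to 85064236, plus strand) encodes rBAT, the heavy chain of the cystine and dibasic amino acid exchanger. It had 433 ± 57.2 normalized counts in water-PBS and 547 ± 81.2 in zinc-PBS. After Dex it had 479 ± 27.2 on water and 471 ± 12.1 on zinc, and it passed in no comparison. Its exons share 26.5% of their length with *Prepl* on the other strand, and since the strand setting of the counting was not stated its level is uncertain. Both heavy chains were higher per kb than the sum of their listed light chains. Per kb, *Slc3a2* stood at 127 to 141 in the 4 groups and the 6 listed partners *Slc7a5*, *Slc7a6*, *Slc7a7*, *Slc7a8*, *Slc7a10* and *Slc7a11* summed to 48.7 to 61.5. *Slc3a1* stood at 191 to 241 per kb and its partners *Slc7a9* and *Slc7a13* summed to 0.138 to 2.01.

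*Slc6a12* (ENSMUSG00000030109, chromosome 6, 121343076 to 121365775, plus strand) encodes BGT1, a carrier of betaine and GABA. It had 818, 976 and 1292 normalized counts in water-PBS and 1387, 1100 and 1073 in zinc-PBS. After Dex it had 830, 793 and 867 in water and 1452, 996 and 1345 in zinc. The groups overlapped between Dex and PBS on each kind of water, and zinc-Dex lay above water-Dex. The log2 fold change with Dex was -0.31 in water (95% interval -0.65 to 0.03, DESeq2 adjusted p 0.215, and 0.047 without water-PBS replicate 1) and 0.09 in zinc (-0.24 to 0.43).

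**Figure D3:**
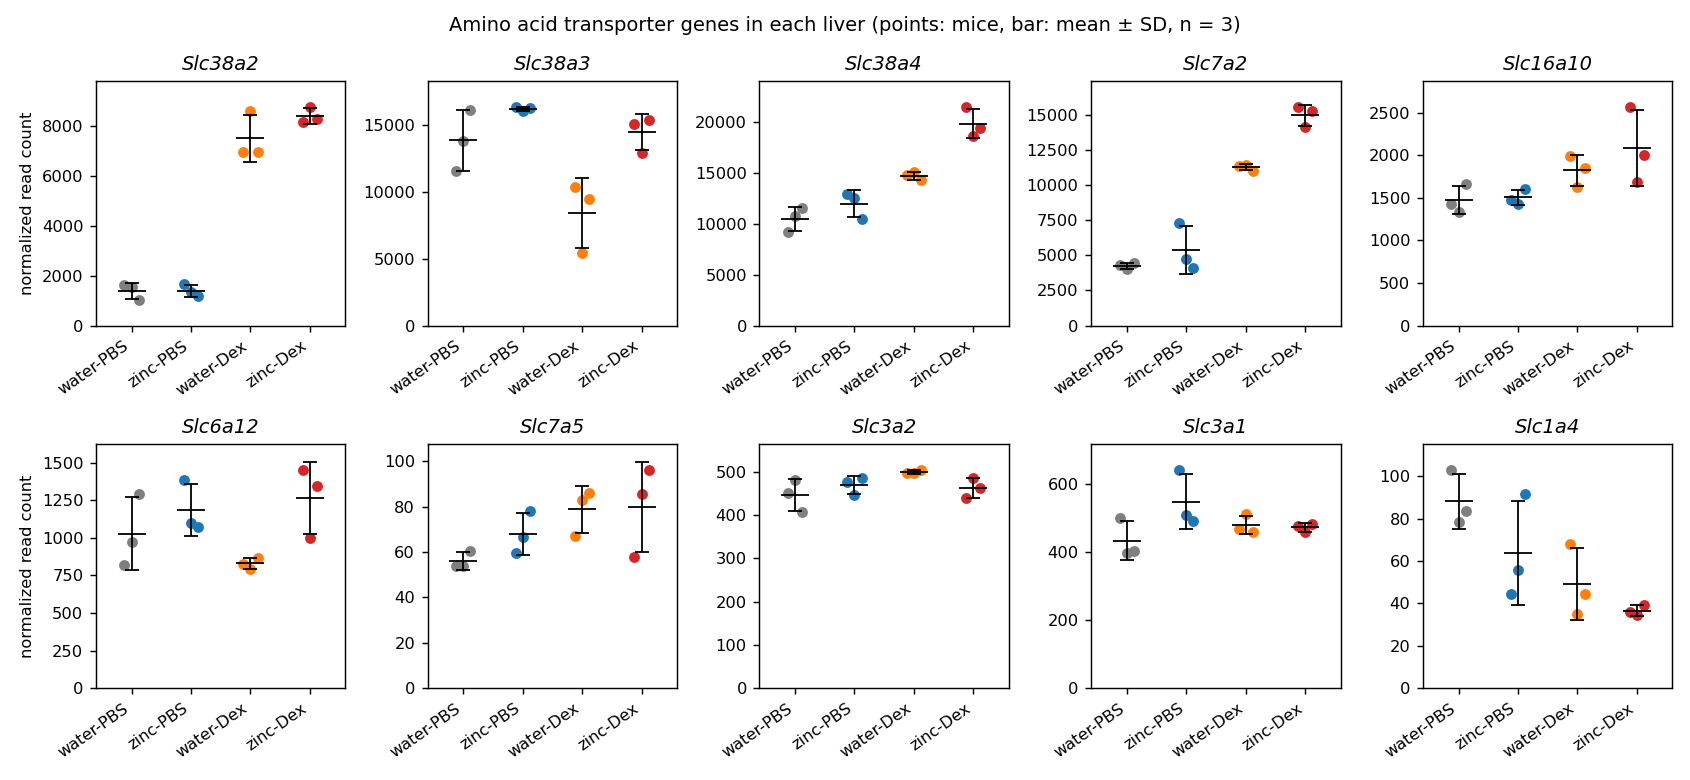
Normalized read count of each of the 10 genes in each of the 12 livers, on linear axes from 0, with a panel per gene and both PBS groups to the left of both Dex groups, water before zinc. Points are mice and bars are mean ± SD of 3, and in the *Slc38a3* panel the water-Dex mice, at 5442 to 10357, lie below all others.

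Zinc in the drinking water alone moved none of the 10 genes past the test. With zinc in PBS-injected mice 0 of 10 passed and 0 were called by DESeq2, where 0.341% of 12307 genes passed and 0.138% were called. The edgeR quasi-likelihood test gave 0 as well, and 2 of 10 had an unadjusted p under 0.05, as did 5.74% of all genes tested. These were *Slc3a1* (log2 fold change 0.34, 95% interval 0.09 to 0.59, adjusted p 0.472) and *Slc7a2* (0.34, 0.03 to 0.65, adjusted p 0.772), the latter 0.06 without zinc-PBS replicate 1. For *Slc38a2* the log2 fold change was -0.01 with a 95% interval from -0.33 to 0.32. The median over the 10 genes was 0.20, beside 0 over all genes.

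In Dex-injected mice, zinc went with higher levels of *Slc38a3*, *Slc38a4* and *Slc6a12*. These 3 of 10 passed with zinc-Dex against water-Dex, all 3 higher, where 1.35% of 12786 genes passed and 0.915% passed as higher. None of the 10 was called with the fold change cutoff, against 0.469% of all genes. An unadjusted p under 0.05 was found for 4 of 10 and for 10.2% of all genes tested. The median log2 fold change of the 10 genes was 0.18, beside 0 over all genes tested. As with Dex, these shares describe genes chosen with earlier results known. *Slc38a3* was 1.72-fold higher (log2 fold change 0.78, SE 0.187, DESeq2 adjusted p 0.00582), *Slc38a4* was 1.35-fold higher (0.43, SE 0.106, adjusted p 0.00737) and *Slc6a12* was 1.52-fold higher (0.61, SE 0.173, adjusted p 0.0389). The edgeR quasi-likelihood test passed 0 of the 10, with adjusted p values of 0.0932, 0.0942 and 0.145 for these 3 genes.

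**Figure D4:**
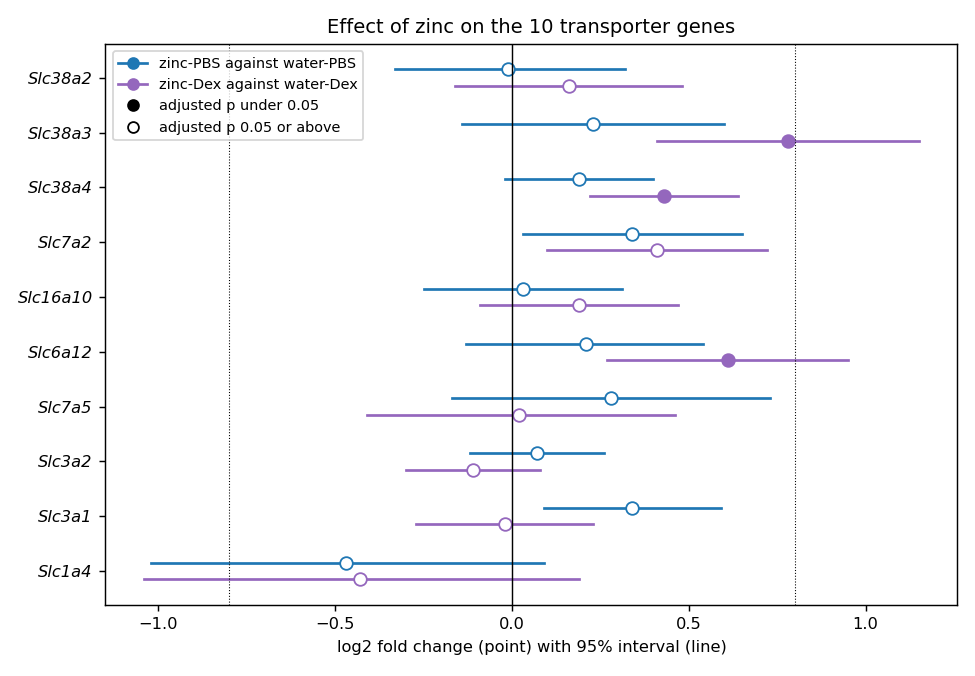
Log2 fold change with zinc for each of the 10 genes, zinc-PBS against water-PBS and zinc-Dex against water-Dex, 3 mice a group. Points are DESeq2 estimates, lines are 95% intervals, filled points passed at an adjusted p under 0.05 and dotted lines mark 0.8 in each direction, and the 3 filled points are *Slc38a3*, *Slc38a4* and *Slc6a12* under Dex at 0.78, 0.43 and 0.61.

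Single libraries weighed on these 3 results. *Slc38a3* passed without any 1 of the 6 mice, with a log2 fold change of 0.54 without water-Dex replicate 2 and 0.95 without water-Dex replicate 1, but had an adjusted p of 0.152 when only the 6 libraries compared were in the fit. It was above the 0.8 cutoff without water-Dex replicate 1, water-Dex replicate 3 or zinc-Dex replicate 2. *Slc38a4* no longer passed without water-Dex replicate 1 (adjusted p 0.0558), water-Dex replicate 3 (0.0985) or zinc-Dex replicate 1 (0.123). *Slc6a12* no longer passed in 7 of 13 alternative fits, among them those without water-Dex replicate 1 (adjusted p 0.14), 2 (0.151) or 3 (0.12), without zinc-Dex replicate 1 (0.325) or 3 (0.169), and with no independent filtering (0.0797).

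*Slc7a2* was 1.33-fold higher in zinc-Dex than in water-Dex, with no overlap between the groups, but did not pass (log2 fold change 0.41, SE 0.159, DESeq2 adjusted p 0.238). In a fit of only these 6 libraries its adjusted p was 0.000553. *Slc38a2* differed by 0.16 (95% interval -0.16 to 0.48) and *Slc3a2* by -0.11 (-0.30 to 0.08). For *Slc3a2* the groups did not overlap either, with zinc-Dex (438.8 to 485.4) below water-Dex (496.5 to 504.6). Between zinc-Dex and water-Dex the groups did not overlap for 5 of the 10 genes and for 20.0% of all genes tested. The sum of 6 cholangiocyte markers was 592 to 821 normalized counts in water-Dex and 954 to 1174 in zinc-Dex. Of these markers 0 of 5 tested passed, and most of the sum was *Spp1*, at 635.5 and 928.4 on average. Each other marker averaged 37.6 or less in both groups. The part of this sum in the zinc results was not tested. The hepatocyte marker sums of the 2 groups overlapped. Most of each was *Alb*, at 1305427 in water-Dex and 1315108 in zinc-Dex on average, so the overlap speaks mainly for that gene.

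The difference between the Dex effects in zinc and in water was tested as an interaction. By DESeq2 0 of 10 passed and 0 were called, where 0.0229% of 26185 genes passed and 0.0191% were called, and edgeR gave 0 too. An unadjusted p under 0.05 was found for 2 of 10 and for 1.99% of all genes tested. For *Slc38a3* the Dex effect was 0.55 higher on the log2 scale in zinc than in water (95% interval 0.03 to 1.07, unadjusted p 0.0376, adjusted p 0.999), and for *Slc3a1* it was lower, at -0.36 (-0.71 to -0.01, unadjusted p 0.0468, adjusted p 0.999). A pass in one kind of water and not in the other, as for *Slc38a3* and *Slc16a10*, was therefore not shown to be a difference between them. The same interaction is the difference between the zinc effects under Dex and under PBS. A pass with zinc only after Dex, as for *Slc38a3*, *Slc38a4* and *Slc6a12*, was likewise not shown to differ from PBS. For *Slc38a2* the interval of the interaction ran from -0.29 to 0.63 and for *Slc7a2* from -0.37 to 0.51.

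Of 36 other amino acid transporter genes, 19 were tested for Dex in water (17 of the 36 averaged 10 or more normalized counts). Of these 1 passed as higher and 4 as lower, beside 11.7% and 9.91% of all genes, with a median log2 fold change of 0.11. *Slc6a9*, the glycine carrier GLYT1, rose from 116 to 211 normalized counts (log2 fold change 0.85, DESeq2 adjusted p 0.00278), and its exons share 27.8% of their length with *Ccdc24* on the other strand. *Slc38a7*, a glutamine carrier of lysosomes, fell from 208 to 109 (-0.93, adjusted p 8.69e-07), and *Slc38a6* fell from 64.7 to 33.1 (-0.97, adjusted p 0.000869). In zinc 3 of 21 tested passed as higher and 4 as lower, beside 11.0% and 9.08% of all genes. Among them were *Slc6a9* (0.99) and *Slc38a7* (-0.81), while *Slc38a6* did not pass (-0.51, DESeq2 adjusted p 0.116, and 0.0402 by edgeR). *Slc7a1*, the widely expressed relative of *Slc7a2*, had only 12.7 normalized counts in water-PBS and 15.3 in water-Dex (adjusted p 0.757).

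*Slc43a1*, which encodes the leucine carrier LAT3, was the 1 gene of these that passed with zinc, among 17 tested under each injection. Over all genes 0.341% passed with zinc in PBS-injected and 1.35% in Dex-injected mice. It had 39.9, 54.6 and 73.6 normalized counts in water-PBS and 107, 136 and 94.2 in zinc-PBS. The difference was 1.0 on the log2 scale (SE 0.251, DESeq2 adjusted p 0.0229). After Dex it had 77.2, 65.9 and 58.4 on water and 167, 102 and 151 on zinc (log2 fold change 1.06, SE 0.247, adjusted p 0.00377). All 6 mice on zinc stood above all 6 on water. With edgeR the adjusted p was 0.207 in PBS-injected and 0.061 in Dex-injected mice. In PBS-injected mice it no longer passed without water-PBS replicate 1 (0.291) or 2 (0.179) or zinc-PBS replicate 1 (0.111) or 2 (0.272). In Dex-injected mice it no longer passed without water-Dex replicate 3 (0.0695) or zinc-Dex replicate 1 (0.0888), and had no adjusted p without water-Dex replicate 2.

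The amino acid response is the ATF4-driven program that cells turn on when amino acids are short and that is known to include *Slc38a2*. Of its 22 listed genes 21 were tested for Dex in water, and 4 passed as higher and 1 as lower, with a median of 0.06. Over all genes tested 21.6% passed in this comparison, 11.7% as higher and 9.91% as lower. *Cebpb*, a transcription factor also known as a glucocorticoid target, rose from 505 to 2212 normalized counts (log2 fold change 2.13, DESeq2 adjusted p 2.85e-23), and *Trib3*, a pseudokinase, from 78.9 to 180 (1.19, adjusted p 1.55e-09). The exons of *Cebpb* share 20.7% of their length with *Tmem189* on the other strand. In zinc 5 passed as higher and 1 as lower, beside 11.0% and 9.08% of all genes, with a median of 0.10. There *Cebpb* and *Trib3* rose by 2.16 and 1.33 on the log2 scale. The 1 passing as lower in each kind of water was *Ddit3*, named here after its value was seen. With Dex it fell from 48.1 to 26.6 normalized counts on water and from 50.1 to 25.2 on zinc. *Atf4* itself, named here after its value was seen, had 1005 normalized counts in water-PBS and 980 in water-Dex (DESeq2 adjusted p 0.858). These are RNA levels, and the amount and activity of the ATF4 protein were not measured. With zinc 0 of 17 tested passed in PBS-injected and 1 of 18 in Dex-injected mice, beside 0.341% and 1.35% of all genes.

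Of 19 listed enzymes that use the transported amino acids, 9 passed as higher with Dex in water, 1 as lower and 9 did not pass, beside 11.7% of all genes higher and 9.91% lower. In zinc 12 passed as higher and 0 as lower, beside 11.0% and 9.08% of all genes. Their median log2 fold changes were 0.34 and 0.46. This list too was chosen with earlier results of these data known, so its shares are only a description. *Tat*, tyrosine aminotransferase, rose from 9502 to 62751 normalized counts in water (log2 fold change 2.72, DESeq2 adjusted p 3.53e-62) and by 3.40 in zinc. *Sds*, serine dehydratase, rose by 2.23 and 2.21, though 21.3% of its exon length is shared with *Plbd2* on the other strand. *Tdo2*, which opens the tryptophan ring, rose by 1.62 in each kind of water, and *Gpt2*, an alanine aminotransferase, by 1.29 and 1.23. With zinc 0 of 19 passed in PBS-injected and 1 of 19 in Dex-injected mice, beside 0.341% and 1.35% of all genes.

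**Figure D5:**
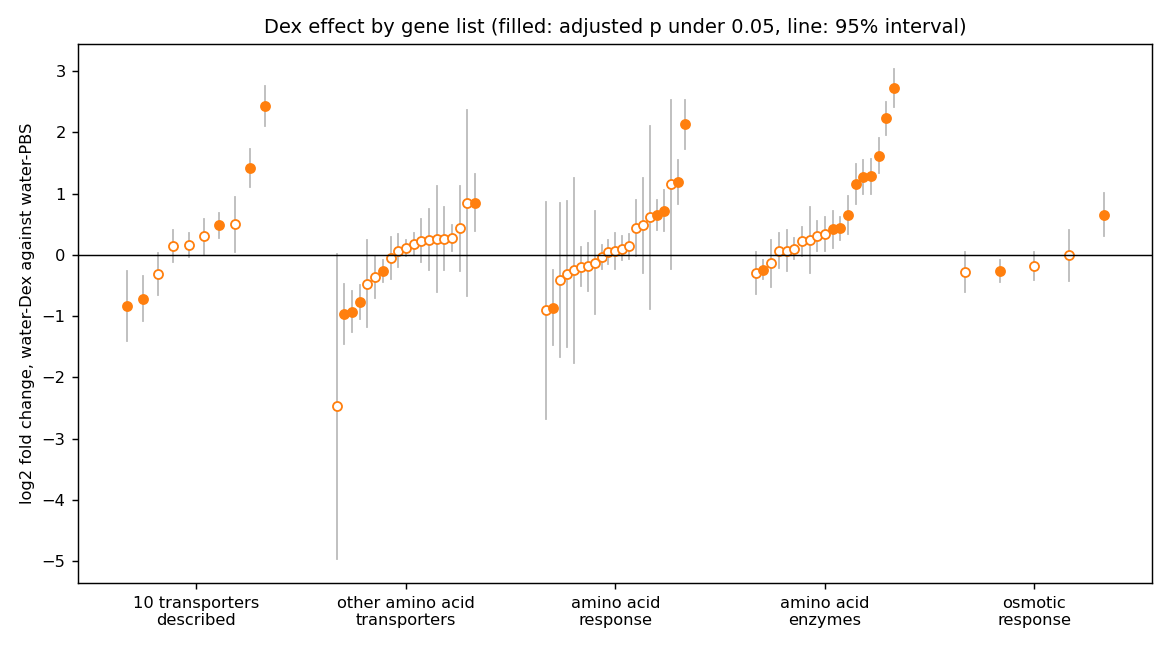
Log2 fold change of water-Dex against water-PBS for the tested genes of each list, sorted from low to high within the list, with 95% intervals as lines and filled points for an adjusted p under 0.05. Passing genes number 5 of 10 for the transporters described, 5 of 19 for other amino acid transporters, 5 of 21 for the amino acid response, 10 of 19 for amino acid enzymes and 2 of 5 for the osmotic response, which stand beside the 21.6% of all genes that passed. *Slc6a6* is in both the other transporter and the osmotic list and is counted in each.

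*Slc6a12* belongs to the genes that cells raise under osmotic stress, so 5 others of that response were set beside it. With Dex in water 1 of the 5 passed as higher and 1 as lower, and the same numbers passed in zinc. Over all genes 11.7% passed as higher and 9.91% as lower in water, and 11.0% and 9.08% in zinc. *Slc5a3*, the myo-inositol carrier, rose by 0.65 and 0.75 on the log2 scale, and *Slc6a6*, the taurine carrier, fell by 0.27 and 0.37, both named here after their values were seen. For zinc in Dex-injected mice, where *Slc6a12* was higher, 0 of the 5 passed, and their median log2 fold change was -0.21.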

How the data were processed

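Total RNA of 12 livers was made into stranded TruSeq libraries and read single-end on a NextSeq 500. According to the methods and the submitters' processing notes, the authors mapped reads to mm10 with hisat 2.0.4 and counted them per gene with featureCounts, without multimapping reads. The deposited values are these raw counts, not normalized. The annotation release and strand setting were not given in the sources used here. Symbols, coordinates and exon lengths were taken from GENCODE M21. The members and lists were chosen with earlier results of these data known.

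Counts were fitted with DESeq2 1.42.0 (R 4.3.3) over all 12 libraries with 1 coefficient per group, using Wald tests, unshrunken fold changes and Benjamini-Hochberg adjustment over all genes tested, following the FDR of 5% in the study. The script was tested on simulated counts. Named list genes are up to 4 per list with the largest Dex effect in water among those called and averaging 50 or more normalized counts, and any called for zinc or the interaction. Alternatives were edgeR 4.0.16, TMM factors, a filter of 10 counts in at least 3 libraries (13255 genes), a replicate block, leaving out each library, and fitting the libraries of a comparison alone. The fold change threshold, the independent filtering and the Cook's distance filter were also dropped, each in turn. With 3 mice against 3 an exact permutation test cannot go below p = 0.1. Replicates of a group differed by 5.70 to 18.8 times the sampling noise (chi-square per degree of freedom), and nothing in the labels says whether mice shared a cage or day.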

Additional observations from a re-analysis of the deposited data

How the results depend on the processing

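Of 700 values for the 10 genes under the alternatives, 647 kept their direction and their side of the threshold, 28 no longer passed, 2 passed anew, and 23 changed sign. The count of called genes among the 10 was 3 for Dex in water and 3 for Dex in zinc, and 5 in each without the fold change threshold. Leaving out 1 library gave 2 to 4 for Dex in water and 2 to 3 for Dex in zinc, where it was 2 without any 1 library other than zinc-PBS replicate 1. Dex in zinc also gave 2 with TMM factors, a replicate block, only the libraries compared or no independent filtering. For zinc in Dex-injected mice it was 0, but 1 (*Slc38a3*) with a replicate block, 3 without the fold change threshold, and 0 to 1 when 1 library was left out. The sign changes were all in values that did not pass. With a replicate block *Slc38a2* with zinc in PBS-injected mice was 0.0034. Leaving out 1 library gave log2 ranges of -0.06 to 0.01 for *Slc3a2* and -0.02 to 0.24 for *Slc6a12* with Dex in zinc, -0.19 to 0.11 for *Slc38a2* and -0.04 to 0.12 for *Slc16a10* with zinc in PBS-injected mice, and -0.14 to 0.21 for *Slc7a5* and -0.05 to 0.02 for *Slc3a1* with zinc in Dex-injected mice. For the interaction the ranges were -0.10 to 0.35 for *Slc7a2*, -0.17 to 0.39 for *Slc1a4* and -0.01 to 0.30 for *Slc16a10*. The cause was not tested. Over all genes, 17 were called with zinc in PBS-injected mice and 9 by edgeR, and 60 with zinc in Dex-injected mice, 21 by edgeR and 40 without independent filtering. With zinc in PBS-injected mice, dropping replicate 1 of either group gave 11 over all genes, dropping replicate 2 or 3 of zinc-PBS gave 28, and dropping replicate 3 of water-PBS gave 38. In Dex-injected mice, dropping replicate 1 or 2 of water-Dex gave 33 and 29, and dropping replicate 1 or 2 of zinc-Dex gave 26 and 101.

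The replicate numbers of the groups showed no clear pairing of the mice, though with 3 mice a group a weak one could be missed. Of 18 same-number pairs 1 had a correlation of deviations over 0.1 (range -0.204 to 0.191), and 2 of 12 libraries agreed best with their own number. The replicate block ended the pass of *Slc1a4* with Dex in zinc (adjusted p 0.0577) and of *Slc43a1* with zinc in PBS-injected mice (adjusted p 0.0808), and no other pass of a named gene.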
